A study of Mus musculus with 12 samples.

Results

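The 69 genes described here encode the ligands and receptors of the 4 classical axon guidance systems in dorsal root ganglia (DRG), which hold the cell bodies of the sensory neurons of the trunk and limbs. They were chosen by gene symbol among the 24490 genes listed, as every class 3 to class 7 semaphorin, plexin, neuropilin, ephrin, Eph receptor, Slit, Robo, netrin and Unc5 gene and Dcc, with no condition on expression. RNA was sequenced from 12 samples in 3 groups of 4, all from adult male C57Bl/6 mice with no stated genotype or treatment beyond the strain, and from ganglia of all spinal levels. Intact samples held the snap-frozen ganglia of 1 mouse each. Unsorted samples, labelled dissociated, held cells of 2 pooled mice each that had been freed with dispase, collagenase and DNAse. MACS-sorted samples pooled 8 mice each. For these, dissociated cells were tagged with a biotinylated antibody cocktail against non-neuronal cells and anti-biotin microbeads, and the cells that ran through a magnetic exclusion column were kept. All values are FPKM, fragments per kilobase of transcript scaled to the mapped fragments of a sample, so that levels can be set side by side between genes of different length. Each value is a whole sample's, and in bulk RNA fewer cells of a type cannot be told apart from less RNA per cell.

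Guidance cues steer growing axons by attraction or repulsion. Semaphorins act through plexins, and the secreted class 3 members bind neuropilins as co-receptors. Ephrins bind Eph receptor tyrosine kinases on neighbouring cells, with A-type ephrins held to the membrane by a lipid anchor and B-type ephrins spanning it. Slits bind Robo receptors and netrins bind Dcc and Unc5 receptors. In the embryo these families sort and direct the central and peripheral branches of DRG neurons, and in the adult they are known from nerve repair, vessel growth and immune cells.

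Per sample, the FPKM of all listed genes added up to 283676 to 345341, and the spacing of the lowest values gave an estimated 13600000 to 19300000 mapped fragments, if fragments were 150 bases long. Replicates were compared by the median absolute deviation of their log2 differences, scaled to match an SD, over genes of higher level. Intact replicate 1 stood apart, at 0.438 to 0.489 from the other intact samples, against 0.0969 to 0.123 among those 3. Results that rest on this sample are given with and without it. By the same measure unsorted replicates 1 and 2 differed least, by 0.0552, against 0.0985 to 0.181 in the other unsorted pairs. These 2 were also averaged into 1 sample as an alternative.

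In intact and unsorted DRG the share of guidance genes expressed was near that of all genes listed. By the study's measure of expression, above 5 FPKM in all 4 samples of a group, expression was met by 23 of the 69 in the intact, 25 in the unsorted and 17 in the MACS-sorted group. These are 33.3%, 36.2% and 24.6% of the 69, beside 31.4%, 32.2% and 29.2% of all genes listed. A mean of at least 1 FPKM was reached by 53 genes in the intact group, 57 in the unsorted and 39 in the MACS-sorted group. Epha1 was listed at 0 in all 12 samples.

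A single plexin stood above the rest in every group. Plxnc1, the receptor of the membrane-anchored semaphorin Sema7a, had means of 52.2 ± 9.09 FPKM in intact DRG, 48.3 ± 1.74 before and 108 ± 20.8 after sorting (SD, n = 4 each, as throughout). In intact DRG it was followed by Sema3b, at 36.2 ± 3.43 FPKM, and then by Sema4f, Plxnd1 and Nrp1, whose means of 19.2 to 20.6 FPKM did not differ beyond their SDs. In unsorted DRG Sema3b, at 41.2 ± 3.20 FPKM, and Sema7a, at 35.2 ± 4.10, came next. In MACS-sorted samples Slit1 took the second place at 34.3 ± 5.21 FPKM, and the 6 genes from Plxnd1 to Nrp1 that followed it, at means of 26.2 to 31.0 FPKM, each differed from the next in order by less than the larger SD of the pair. Sema3b ranked below all of these there.

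The leading gene differed between families. Among Eph receptors it was Ephb6, a member without active kinase, at 9.52, 8.82, 10.4 and 11.1 FPKM in intact, 10.9, 11.4, 12.1 and 11.6 in unsorted and 9.38, 9.66, 8.85 and 7.94 in MACS-sorted replicates. No other Eph receptor reached a mean of 5 FPKM in any group. Efna1 led the ephrins and Slit1 and Robo2 their own families, while netrins and their receptors stayed below a mean of 5 FPKM. Ntn1, the founding netrin, led the last group in intact DRG at 6.28, 3.29, 3.35 and 4.04 FPKM in replicates 1 to 4, with replicate 1 highest. Dcc, its classical attractive receptor, was at most 0.241 FPKM in any sample.

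**Figure D1:**
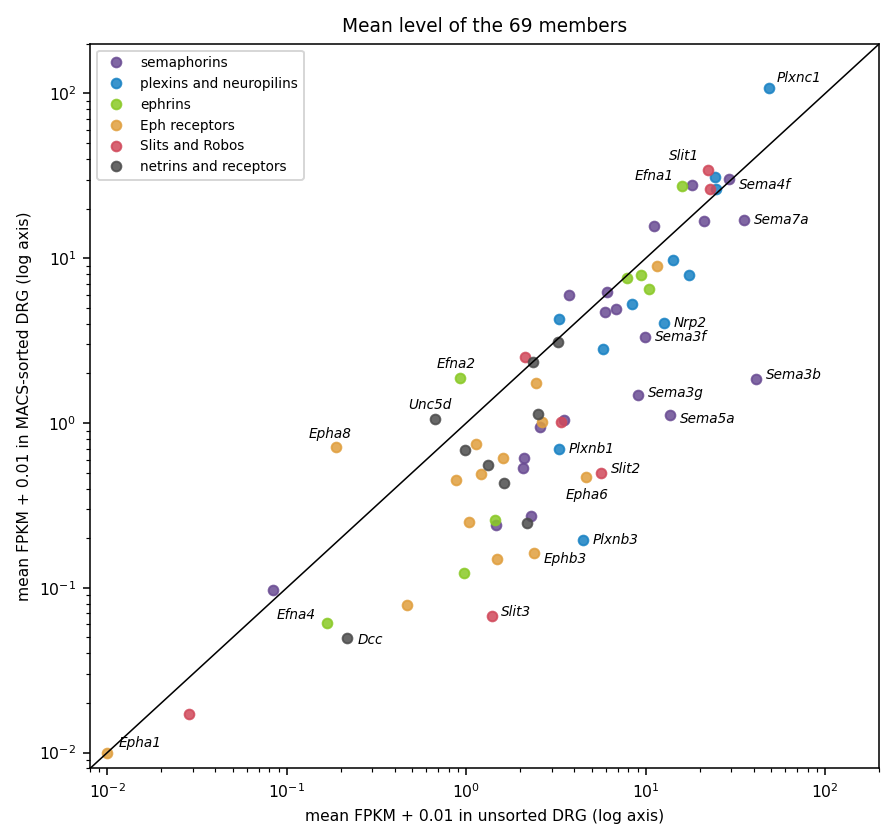
Mean FPKM of the 69 guidance genes in unsorted DRG (x axis) and MACS-sorted DRG (y axis), both on log axes with 0.01 added so that genes listed at 0 can be drawn. Each point is 1 gene coloured by family, and points under the line were lower in MACS-sorted samples, with Plxnc1 at the top right and Sema3b far below the line.

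The first comparison asks which guidance genes went with the cells that passed the sort. MACS-sorted samples were tested against unsorted samples with limma on log2(FPKM + 0.1), two-sided, with Benjamini-Hochberg adjustment over all 12038 genes whose mean over the 8 samples was at least 1 FPKM. More of the guidance genes were depleted than enriched: of the 50 that reached this level, 31 fell and 7 rose at an adjusted p under 0.05. These are 62.0% and 14.0% of the 50, beside 27.7% and 18.8% of all genes tested. The log2-fold change had a median of −0.69 over the 50 and of −0.04 over all genes tested. In 30 of the 50 every MACS-sorted sample lay below every unsorted one and in 6 above, beside 27.8% and 18.4% of all genes tested. The study's 2 further criteria were a log2 ratio of group means beyond 0.5 and more than 5 FPKM on average in the higher group. With these added, 12 were depleted and 4 enriched. The shares are 24.0% and 8.00% of the 50, beside 12.5% and 8.15% of all genes tested. The enriched share was thus near that of all genes tested. The study also removed genes that rose with sorting and are expressed in red blood cells, which was not done for these counts. The filter bears on these counts, since 12 of the 50 had a mean under 1 FPKM in MACS-sorted samples and passed it through their level in unsorted DRG alone, and 1 the other way round. Quantile normalization of the samples turned the balance over all genes, from 2261 higher and 3331 lower to 4039 and 2767, and left 11 guidance genes higher and 29 lower, of which 6 and 10 met the 3 criteria. The sorted samples also came from more mice, which cannot be told apart from sorting. The remaining 19 guidance genes were too low to test.

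Secreted semaphorins, the ligands of neuropilins, were among the genes that fell most. Of 6 tested, 4 were lower in MACS-sorted samples, beside 27.7% of all genes tested. Of these 4, Sema3d passed the filter through its level in unsorted DRG alone. Sema3b (chromosome 9, 107597674 to 107609241, mm10) was at 41.3, 41.1, 37.3 and 45.1 FPKM in unsorted replicates 1 to 4 and at 0.493, 0.439, 1.49 and 4.96 in MACS-sorted replicates 1 to 4. Every MACS-sorted sample was thus far below every unsorted one, and MACS-sorted replicate 4 was the highest of its group. The log2-fold change was −5.03 (SE 0.60, adjusted p = 0.00012 from limma) and reached −5.69 without MACS-sorted replicate 4. Intact replicates had 37.6, 32.9, 40.4 and 34.0 FPKM.

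Sema3g (chromosome 14, 31217873 to 31229511), best known from vessel walls, fell from 8.57, 8.63, 9.15 and 9.95 to 1.18, 0.268, 1.41 and 3.00 FPKM, with MACS-sorted replicate 2 lowest and replicate 4 highest. Its log2-fold change was −2.91 (SE 0.52, adjusted p = 0.0013 from limma). Sema3f (chromosome 9, 107681502 to 107710475), a repellent that acts through Nrp2, was at 9.36, 8.90, 12.5 and 9.02 FPKM in unsorted samples, where replicate 3 was high, and at 3.61, 2.85, 3.32 and 3.51 in MACS-sorted samples, a narrow range without overlap. Its log2-fold change was −1.55 (SE 0.13, adjusted p = 1.5e-05 from limma). Sema3f lies on the same chromosome as Sema3b, 72261 bases away, and no other pair of semaphorins among the 69 lay within 150000 bases. Sema3d also fell by 2.81 on the log2 scale (adjusted p = 8.1e-05 from limma), with 2.00 to 2.52 FPKM before and 0.118 to 0.467 after sorting. The other 2 secreted semaphorins tested did not pass. Sema3c, at 6.04 ± 1.34 FPKM before and 6.19 ± 0.782 after sorting, and Sema3e, a ligand of Plxnd1, at 3.75 ± 0.288 and 5.95 ± 2.33 FPKM, had overlapping samples in the 2 groups. Sema3a, the best studied repellent of this class, was at most 0.164 FPKM in the 12 samples and was not tested. Summed over the 7 secreted semaphorins, expression was 72.4 ± 2.71 FPKM in unsorted and 19.1 ± 4.38 FPKM in MACS-sorted samples.

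Membrane-bound semaphorins moved in both directions. Sema5a, which carries thrombospondin repeats and is a ligand of Plxnb3 (chromosome 15, 32244813 to 32696341), was at 14.1, 13.8, 11.7 and 15.2 FPKM in unsorted replicates and at 1.61, 0.464, 1.13 and 1.23 in MACS-sorted replicates. Its mean in MACS-sorted samples was 12.3-fold lower, with MACS-sorted replicate 2 the lowest, and the log2-fold change was −3.61 (SE 0.29, adjusted p = 1.2e-05 from limma). Sema7a (chromosome 9, 57940135 to 57962865), the lipid-anchored ligand of Plxnc1, fell from 32.2, 34.1, 41.3 and 33.4 to 14.3, 12.3, 17.3 and 24.1 FPKM, a log2-fold change of −1.09 (SE 0.19, adjusted p = 0.001 from limma). Its MACS-sorted samples had a wide spread and overlapped those of intact DRG, at 11.6 to 18.1 FPKM. Sema4d, the ligand of Plxnb1 that is also known from lymphocytes (chromosome 13, 51701248 to 51793747), rose instead, from 19.2, 18.3, 17.0 and 18.2 to 29.1, 27.6, 29.1 and 25.8 FPKM. The groups were apart by more than either range, and the log2-fold change was 0.62 (SE 0.07, adjusted p = 7.1e-05 from limma). Sema4b rose by 0.49 (adjusted p = 0.0015 from limma), from 11.1 ± 0.712 to 15.6 ± 1.49 FPKM, and missed the limit on the ratio. Among the other transmembrane semaphorins Sema4a, Sema4g, Sema6a and Sema6b fell by 1.44 to 1.87 on the log2 scale, from means of 2.05 to 3.50 FPKM in unsorted DRG. Of these, Sema4a, Sema4g and Sema6b averaged 0.526, 0.930 and 0.607 FPKM in MACS-sorted samples. These passed the filter through their level in unsorted DRG alone. Sema4c, Sema6c and Sema6d fell by 0.33 to 0.52, with adjusted p-values of 0.023 to 0.035 from limma that were lost in 3 to 6 of the 8 fits that left out 1 sample. Sema4f, the semaphorin with the highest mean in MACS-sorted samples, did not pass, at 29.1 ± 1.54 FPKM in unsorted and 30.1 ± 3.17 in MACS-sorted samples.

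The 2 Slits that could be tested went opposite ways. Slit1 (chromosome 19, 41600257 to 41743856) was at 21.0, 20.9, 25.8 and 21.2 FPKM in unsorted replicates, with replicate 3 high, and at 28.7, 38.8, 30.9 and 38.6 in MACS-sorted replicates, all above the unsorted samples. Its log2-fold change was 0.62 (SE 0.12, adjusted p = 0.002 from limma). Slit2 (chromosome 5, 47983155 to 48306282) fell from 4.93, 4.75, 6.31 and 6.59 to 0.524, 0.195, 0.449 and 0.790 FPKM, with no sample of the sorted group reaching 1 FPKM, a log2-fold change of −3.38 (SE 0.31, adjusted p = 2.4e-05 from limma). Slit2 passed the filter through its level in unsorted DRG alone. The third gene, Slit3, was under the filter, at 1.10 to 1.80 FPKM before and 0.0130 to 0.112 after sorting. The 3 genes encode secreted repellents of the same build. The microRNA genes Mir218-1 and Mir218-2 overlap Slit2 and Slit3.

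Ephrins moved in both directions. The A-type ligand Efna1 (chromosome 3, 89271730 to 89280951) rose from 17.7, 15.5, 15.5 and 14.7 to 27.6, 28.6, 28.5 and 25.2 FPKM, with tight replicates in both groups and a log2-fold change of 0.79 (SE 0.08, adjusted p = 3.3e-05 from limma). Intact replicates had 16.5, 13.9, 13.6 and 15.6 FPKM of it. Efna2 rose at a lower level, from 0.933, 1.20, 0.673 and 0.834 to 1.45, 2.09, 1.26 and 2.64 FPKM (log2-fold change 0.93, SE 0.27, adjusted p = 0.019 from limma), and no longer passed without unsorted replicate 3. It averaged 0.911 FPKM in unsorted samples and passed the filter through its level in MACS-sorted samples alone. It also overlaps the listed gene Bc1. The B-type ligand Efnb2 (chromosome 8, 8617439 to 8660773), a marker of arteries as well as a guidance cue, fell from 10.7, 10.3, 10.8 and 9.90 to 4.39, 6.91, 7.14 and 7.64 FPKM, with MACS-sorted replicate 1 lowest. Its log2-fold change was −0.70 (SE 0.16, adjusted p = 0.0052 from limma). Efna5 and Efnb1 did not pass, at means of 9.41 and 7.87 FPKM in unsorted and 7.87 and 7.59 in MACS-sorted samples. Efna1 has 2 close relatives beside it on chromosome 3, Efna3 at 34000 bases and Efna4 at 10514 bases beyond that. Neither shared its level, since Efna3 was at 0 to 0.445 and Efna4 at 0 to 0.206 FPKM in MACS-sorted samples.

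Both tested netrins fell, beside 27.7% of all genes tested. Each averaged under 1 FPKM in MACS-sorted samples and passed the filter through unsorted DRG alone. Ntn1 had 3.03, 2.61, 1.47 and 1.57 FPKM before and 0.221, 0.0788, 0.194 and 0.449 after sorting, a log2-fold change of −2.81 (SE 0.40, adjusted p = 0.00035 from limma). Ntn4, a basement membrane protein, had 1.34 to 1.90 and 0.130 to 0.849 FPKM, a log2-fold change of −1.90 (SE 0.41, adjusted p = 0.0041 from limma). Neither exceeded 5 FPKM on average, so that no netrin met the 3 criteria.

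Of the receptors, Plxnc1 (chromosome 10, 94790866 to 94944578) had the largest rise. It was at 48.9, 49.1, 49.5 and 45.8 FPKM in unsorted and at 121, 114, 121 and 77.6 in the 4 MACS-sorted replicates, with replicate 4 of either group the lowest. All sorted samples exceeded all unsorted ones, the mean was 2.24-fold higher, and the log2-fold change was 1.14 (SE 0.13, adjusted p = 0.0001 from limma). Without MACS-sorted replicate 4 it was 1.29. The receptor thus rose and its ligand Sema7a fell in the same comparison.

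The other plexins that met the criteria were depleted. Plxna2 (chromosome 1, 194619829 to 194816868), a partner of neuropilins, fell from 16.9, 16.4, 19.3 and 17.4 to 9.23, 6.50, 9.27 and 6.79 FPKM (log2-fold change −1.14, SE 0.13, adjusted p = 8.3e-05 from limma). Plxna1 (chromosome 6, 89316314 to 89362613) fell from 7.58, 7.86, 10.2 and 8.06 to 4.16, 4.78, 5.22 and 6.76 FPKM (log2-fold change −0.69, SE 0.15, adjusted p = 0.005 from limma), and its groups were closest at 6.76 and 7.58 FPKM. Plxna4 (chromosome 6, 32144557 to 32588192), a receptor of class 3 semaphorins in sensory axons, changed least of the 3, from 14.5, 14.4, 14.8 and 13.3 to 9.83, 9.13, 9.59 and 10.2 FPKM (log2-fold change −0.55, SE 0.07, adjusted p = 0.00017 from limma). Plxnb2 (chromosome 15, 89155546 to 89180788), a receptor of class 4 semaphorins, fell from 5.95, 6.31, 5.84 and 4.95 to 2.87, 2.34, 2.61 and 3.46 FPKM (log2-fold change −1.01, SE 0.14, adjusted p = 0.00025 from limma). The 2 other B-type plexins fell from lower levels. Both averaged under 1 FPKM in MACS-sorted samples and passed the filter through their level in unsorted DRG alone. Plxnb3, the receptor of Sema5a, was at 4.63, 4.45, 3.95 and 4.72 FPKM in unsorted samples, listed at 0 in MACS-sorted replicate 1 and at 0.0642, 0.117 and 0.554 in replicates 2 to 4. Its log2-fold change, −4.36 (SE 0.50, adjusted p = 8.8e-05 from limma), depends on the pseudocount and was −2.22 with a pseudocount of 1. Plxnb1 fell by 2.26 (adjusted p = 0.00045 from limma), from 3.26 to 0.685 FPKM. Plxna3 and Plxnd1 did not pass, at 4.26 ± 0.972 and 31.0 ± 6.44 FPKM in MACS-sorted and 3.30 ± 0.104 and 24.4 ± 1.15 in unsorted samples.

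The 2 neuropilins parted. Nrp2 (chromosome 1, 62703317 to 62818692) fell from 13.0, 13.8, 12.3 and 11.3 to 4.03, 3.08, 5.28 and 3.65 FPKM, with no overlap and a log2-fold change of −1.65 (SE 0.15, adjusted p = 2.3e-05 from limma). Nrp1 did not pass. It was at 27.8, 27.8, 21.4 and 21.0 FPKM in unsorted and at 19.5, 27.8, 25.7 and 31.8 in MACS-sorted replicates, so that the groups covered the same range. Whether the change of Nrp2 differs from that of Nrp1 was not tested. Of the 69 genes 20 overlap another listed gene, among them Slit2, Nrp2 (4930487H11Rik), Plxna4 (Plxna4os1) and Plxnb2 (Mir7118) of those that met the criteria, and whether the authors' counting used strand is not given in the sources used here.

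**Figure D2:**
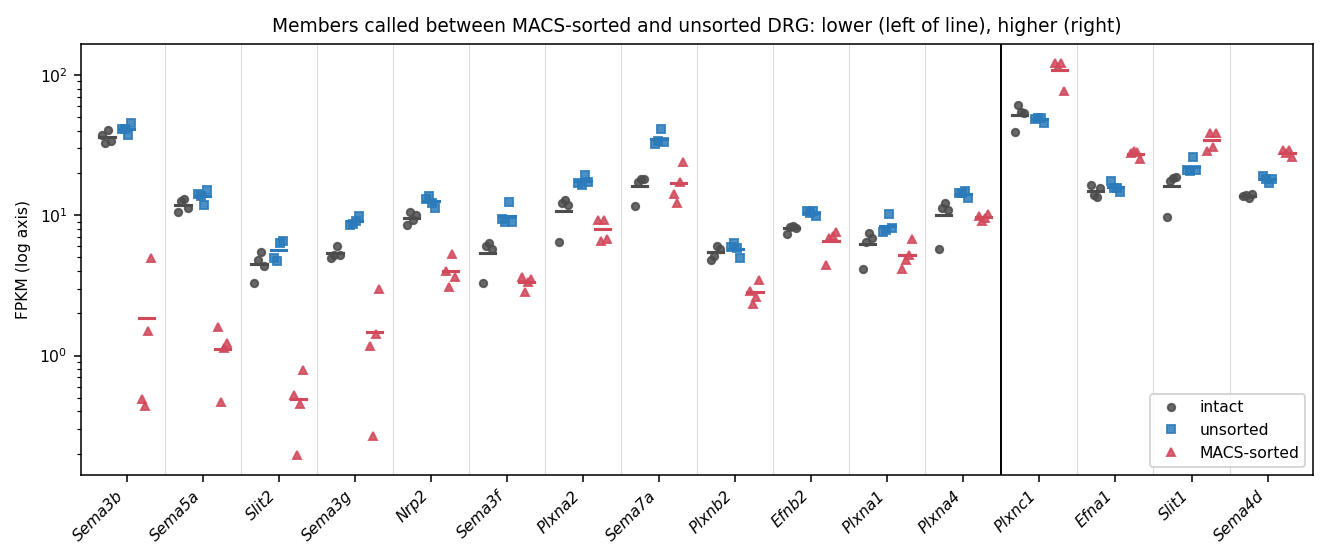
FPKM (log axis) in each of the 4 intact, 4 unsorted and 4 MACS-sorted samples for the 16 guidance genes that met the 3 criteria between MACS-sorted and unsorted DRG, with bars at the group means. The 12 genes left of the line were lower in MACS-sorted samples and the 4 to its right higher, and for none of the 16 did MACS-sorted and unsorted samples overlap.

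Robo and Eph receptors were changed below 5 FPKM for the most part. Robo1 fell by 1.68 on the log2 scale (adjusted p = 9.9e-05 from limma), from 3.36 to 1.00 FPKM. Robo2, the Robo with the highest level in DRG, passed narrowly at 0.21 (adjusted p = 0.048 from limma). Its values of 22.6, 22.6, 22.5 and 23.1 FPKM in unsorted and 26.9, 27.7, 28.2 and 22.8 in MACS-sorted replicates overlapped through MACS-sorted replicate 4, the exact two-sided permutation p was 0.057, and the call was lost in 7 of 8 fits that left out 1 sample. Robo4, which is known from endothelial cells, was at 2.48, 2.36, 1.71 and 1.95 FPKM in unsorted and 2.72, 0.839, 2.16 and 4.27 in MACS-sorted replicates and did not pass. Of 6 Eph receptors tested 5 fell, beside 27.7% of all genes tested. Among them Epha4, Epha6 and Ephb3 averaged under 1 FPKM in MACS-sorted samples and passed the filter through unsorted DRG alone. Ephb3 and Epha6 fell most, by 3.36 and 3.08 on the log2 scale (adjusted p = 3.5e-05 and 6.7e-06 from limma), from means of 2.36 and 4.61 FPKM to 0.153 and 0.458 FPKM. Ephb4, a vein marker, and Epha4 fell by 1.44 and 1.28, and Ephb6 by 0.36. Epha5, from 2.04 to 2.69 in unsorted to 1.37 to 2.1 FPKM in MACS-sorted samples, did not pass. Of the netrin receptors, Unc5c fell by 1.10 (adjusted p = 0.0012 from limma), whereas Unc5a and Unc5b, at 3.09 ± 1.03 and 2.35 ± 0.328 FPKM in MACS-sorted and 3.25 ± 0.432 and 2.35 ± 0.497 in unsorted samples, did not pass.

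**Figure D3:**
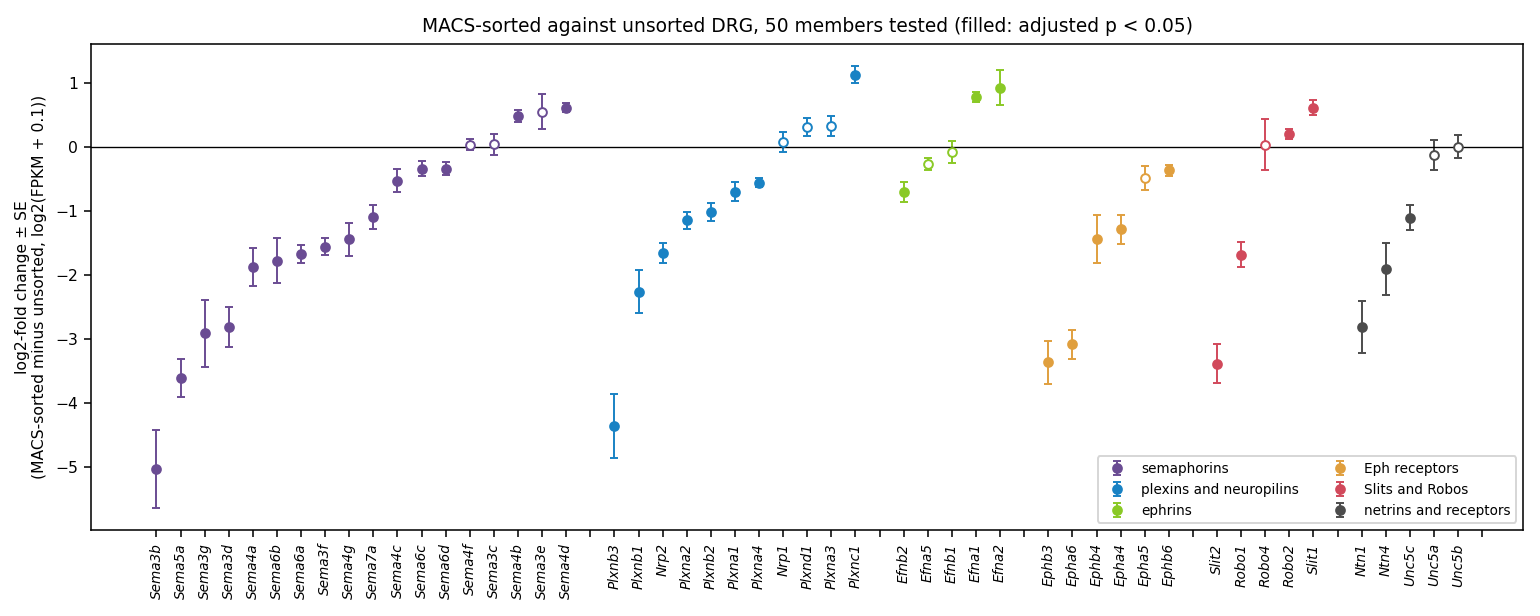
Log2-fold change with its SE for the 50 guidance genes tested between MACS-sorted and unsorted DRG (limma on log2(FPKM + 0.1)), ordered within each family, with filled points for an adjusted p under 0.05. Values run from −5.03 for Sema3b to 1.14 for Plxnc1, and each family holds filled points under the zero line.

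The 19 genes under the filter were Sema3a, Sema5b, Slit3, Robo3, Efna3, Efna4, Efnb3, Ntn3, Ntn5, Dcc, Unc5d and the Eph receptors Epha1, Epha2, Epha3, Epha7, Epha8, Epha10, Ephb1 and Ephb2. The highest mean among them in these groups was that of Ephb1 in unsorted DRG, 1.48 FPKM, and their values are a description without a test. Of the 18 with a value above 0 in these samples, 11 were lower in MACS-sorted samples without overlap and 2 higher, beside 19.0% and 3.99% of all 5613 such genes under the filter. Ephb1, at 1.22 to 1.71 FPKM before and 0.0860 to 0.196 after sorting, and Sema5b, at 1.11 to 1.82 and 0.165 to 0.30 FPKM, had the highest unsorted means of the 11. Unc5d, a netrin receptor, was higher without overlap, at 0.815 to 1.29 FPKM against 0.474 to 0.786. Epha8, at 0.262 to 1.49 against 0.0821 to 0.262 FPKM, was the other, with groups that all but met. Zeros were listed for Dcc, Efna3, Efna4 and Robo3 in some of the samples, which is not proof that no read was present.

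Summed by class, the picture was uneven. Plexins as a class stood at 129.6 ± 4.79 FPKM in unsorted and 170.1 ± 24.8 in MACS-sorted samples, of which Plxnc1 alone made up 48.3 and 108 FPKM. A-type ephrins went from 27.8 ± 2.04 to 37.5 ± 2.03 FPKM and Slits from 29.2 ± 3.19 to 34.8 ± 5.21. A-type Eph receptors went from 12.3 ± 0.596 to 4.98 ± 0.931 FPKM, B-type Eph receptors from 19.1 ± 0.619 to 10.7 ± 0.318 and netrins from 6.07 ± 0.969 to 1.88 ± 0.352. These sums were not tested.

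**Figure D4:**
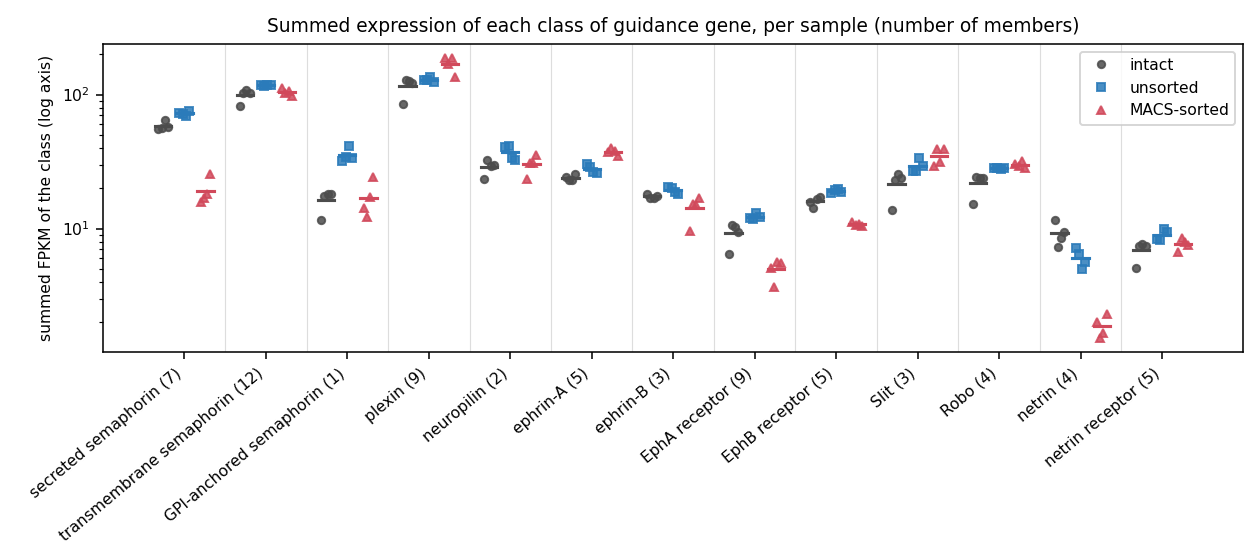
Summed FPKM (log axis) of each class of guidance gene in the 4 intact, 4 unsorted and 4 MACS-sorted samples, with bars at the group means and the number of genes of the class in brackets. Secreted semaphorins, EphA receptors and netrins were lowest in MACS-sorted samples, and plexins and A-type ephrins highest there.

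Marker lists of cell types were compared between the same 2 groups. All 8 satellite glia markers fell in MACS-sorted samples, with summed levels of 2129 to 2683 FPKM in unsorted and 90.2 to 196 in sorted samples. Of 7 Schwann cell markers 6 fell (2016 to 3268 against 517 to 1207 FPKM), and of 6 fibroblast markers tested 5 fell (169 to 339.9 against 7.62 to 32.4 FPKM), with Dpt listed at 0 in every sorted sample. Pericyte and smooth muscle markers counted 5 lower and 1 higher of 6 (66.7 to 88.3 against 55.9 to 125 FPKM), with Tagln listed at 0 in every sorted sample, and the 1 macrophage marker tested fell (5.39 to 9.88 against 0.498 to 2.38 FPKM for the list). Of 6 endothelial markers 0 passed in limma and 0 had an unadjusted p under 0.05 (38.2 to 50.5 against 11.4 to 68.1 FPKM). Neurons shifted too: all 11 markers of large-diameter neurons fell (3951 to 4655 against 1122 to 1529 FPKM), and of 11 nociceptor markers 9 rose and 1 fell (2710 to 2832 against 3099 to 4300 FPKM). Of 8 pan-neuronal markers 2 rose and 3 fell, at 4188 to 4516 FPKM in unsorted, 3736 to 4786 in MACS-sorted and 3495 to 3730 in intact DRG. The 6 red blood cell markers tested all rose (88.1 to 325 against 1473 to 12683 FPKM), with Hba-a1 listed at 0 throughout. The part that each cell type had in the changes of the guidance genes was not tested.

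Promoter sequences from RefSeq (GRCm38.p6) are shown for the 2 depleted and the 2 enriched genes with the largest changes among those that met the criteria and had a start site within 300 bases of the listed gene start. They put genes that moved in opposite directions side by side. Each run is the 250 bases before the start site, 5′ to 3′ on the gene's strand, and capitals mark the GC box word GGGCGG and the TATA box word TATAAA on either strand. Sema5a lies at chr15:32244563-32244812 on the plus strand, Slit2 at chr5:47982905-47983154 on the plus strand, Plxnc1 at chr10:94944846-94945095 on the minus strand, 267 bases from its listed start, and Efna1 at chr3:89280952-89281201 on the minus strand.
Sema5a: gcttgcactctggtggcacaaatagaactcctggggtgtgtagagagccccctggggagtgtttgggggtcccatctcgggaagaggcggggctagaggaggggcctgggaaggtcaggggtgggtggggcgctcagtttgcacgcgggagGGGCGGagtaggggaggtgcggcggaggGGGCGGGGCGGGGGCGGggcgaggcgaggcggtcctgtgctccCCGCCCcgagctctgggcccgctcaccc
Slit2: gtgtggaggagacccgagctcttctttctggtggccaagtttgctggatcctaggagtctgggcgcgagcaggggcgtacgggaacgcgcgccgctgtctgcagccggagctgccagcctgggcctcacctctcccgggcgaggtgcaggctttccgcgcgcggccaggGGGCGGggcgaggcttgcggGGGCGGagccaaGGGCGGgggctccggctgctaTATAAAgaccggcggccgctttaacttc
Plxnc1: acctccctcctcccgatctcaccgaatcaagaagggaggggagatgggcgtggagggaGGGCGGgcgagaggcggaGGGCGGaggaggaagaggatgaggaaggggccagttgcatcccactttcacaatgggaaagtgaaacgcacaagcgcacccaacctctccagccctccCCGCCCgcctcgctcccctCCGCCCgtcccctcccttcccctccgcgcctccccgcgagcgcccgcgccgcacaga
Efna1: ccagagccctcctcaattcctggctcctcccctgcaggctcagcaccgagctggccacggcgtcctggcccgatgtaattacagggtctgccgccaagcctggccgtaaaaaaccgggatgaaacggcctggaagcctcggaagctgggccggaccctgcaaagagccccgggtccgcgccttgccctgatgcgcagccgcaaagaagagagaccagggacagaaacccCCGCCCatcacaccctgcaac
The windows of the depleted Sema5a and Slit2 held 5 and 3 GC boxes, the latter with 1 TATA box, and those of the enriched Plxnc1 and Efna1 held 4 and 1. Of the 69 genes, 56 had such a window. A GC box was found in 42 of them, or 75.0%, beside 32.7% of all 32851 windows of this length, and in 20 of 24 windows of genes that fell and all 4 of genes that rose. The 56 windows are 1 per gene, the nearest to its listed start, whereas all 32851 windows were taken without this choice. Shares and medians over all windows are thus from an unlike set and do not show a trait of guidance genes. The TATA box word was found in 1 of the 56 windows, that of Slit2, or 1.79%, beside 12.4% of all windows. The median number of CpG was 16 in the 56 windows, 16.5 for genes that fell, 21 for genes that rose and 6 over all windows. A further 4 words were searched on both strands, CAGCTG (an E-box), TGTGGT (a RUNX word), AACAAT (a SOX word) and TGACG (a word of the CRE). They were found in 9, 6, 2 and 6 of the 56 windows, or 16.1%, 10.7%, 3.57% and 10.7%, beside 13.0%, 14.0%, 9.42% and 17.8% of all windows. A match of letters is a description of the sequence and not a binding site.

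The second comparison asks how the same genes differed between dissociated and intact DRG, where the number of mice per sample changes along with dissociation and cannot be told apart from it. It shares the 4 unsorted samples with the first, so that a sample that is high there raises this difference and lowers the other. Of 57 guidance genes tested, 18 rose and 2 fell in unsorted DRG at an adjusted p under 0.05 from limma. These are 31.6% and 3.51%, beside 14.8% and 7.79% of the 12392 genes tested. In 23 of the 57, or 40.4%, every unsorted sample lay above every intact one, beside 20.8% of all genes tested. The median log2-fold change was 0.32 over the 57 and 0.01 over all genes tested. The filter bears on these counts too, since 5 of the 57 averaged under 1 FPKM in intact DRG and passed through unsorted DRG alone. Robo4 and Ephb1 were among these 5, and 1 gene passed the other way round. By the 3 criteria 6 were higher and 0 lower, or 10.5% and 0.00% of the 57, beside 4.29% and 2.76% of all genes. Without intact replicate 1, 58 genes were tested, and 21 rose and 4 fell. These are 36.2% and 6.90%, beside 22.2% and 13.6% of all genes. Of the 58, 4 and 0 met the criteria, or 6.90% and 0.00%, beside 3.20% and 2.56%. Without unsorted replicate 1 the number that rose was 11.

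Sema7a changed most, from 11.6, 17.4, 18.1 and 18.01 FPKM in intact replicates 1 to 4 to 32.2, 34.1, 41.3 and 33.4 in unsorted replicates. Intact replicate 1 was low and unsorted replicate 3 high, and the groups did not overlap. The log2-fold change was 1.12 (SE 0.15, adjusted p = 0.0028 from limma), or 0.97 without intact replicate 1. The secreted ligand Sema3f rose from 3.29, 6.06, 6.29 and 5.73 to 9.36, 8.90, 12.5 and 9.02 FPKM (log2-fold change 0.91, SE 0.21, adjusted p = 0.017 from limma, and 0.70 without intact replicate 1). Sema3g rose from 4.94, 5.18, 6.08 and 5.17 to 8.57, 8.63, 9.15 and 9.95 FPKM, with close replicates and a log2-fold change of 0.75 (SE 0.09, adjusted p = 0.0018 from limma). When all 12 samples were fitted together its adjusted p from limma was 0.28. The receptor Plxna2 rose from 6.41, 12.2, 12.8 and 11.8 to 16.9, 16.4, 19.3 and 17.4 FPKM, where intact replicate 1 lay far below the rest (log2-fold change 0.74, SE 0.20, adjusted p = 0.031 from limma). Without that sample it was 0.51, and the adjusted p from limma was 0.052 without intact replicate 4, 0.064 to 0.083 without any 1 of the unsorted replicates and 0.065 with unsorted replicates 1 and 2 averaged. These 4 are the genes that met the criteria without intact replicate 1. In the first comparison, which takes the same unsorted samples with the opposite sign, the log2-fold changes of Sema7a, Sema3f, Sema3g and Plxna2 were −1.09, −1.55, −2.91 and −1.14.

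A further 2 genes met the criteria with all 4 intact samples but not without intact replicate 1. Sema4f (chromosome 6, 82911885 to 82939750) rose from 15.9, 21.3, 21.5 and 23.5 to 28.8, 29.0, 31.2 and 27.5 FPKM, a log2-fold change of 0.51 (SE 0.12, adjusted p = 0.017 from limma) that was 0.40 without intact replicate 1. Efna5 (chromosome 17, 62602957 to 62881317), an A-type ephrin, rose from 5.08, 7.07, 7.0 and 7.46 to 10.3, 9.62, 8.84 and 8.89 FPKM, a log2-fold change of 0.51 (SE 0.12, adjusted p = 0.021 from limma) that was 0.38 without that sample. Both still passed the adjusted p there, at 0.0015 and 0.0035 from limma, and with unsorted replicates 1 and 2 averaged the adjusted p of Efna5 was 0.058, and it was 0.061 and 0.057 without unsorted replicate 1 or 2.

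The other genes that rose did so below the limits on level or ratio. Robo4 rose by 1.07 on the log2 scale (adjusted p = 0.0038 from limma), from 0.908, 0.835, 1.02 and 1.05 to 2.48, 2.36, 1.71 and 1.95 FPKM, and by 1.05 without intact replicate 1. When all 12 samples were fitted together its adjusted p from limma was 0.065. All 6 endothelial markers rose as well, with a median log2-fold change of 1.07 and summed levels of 20.2 to 23.7 FPKM in intact and 38.2 to 50.5 in unsorted DRG. Of the 11 markers of large-diameter neurons 8 rose, at 2551 to 3302 FPKM in intact and 3951 to 4655 in unsorted DRG, and of the 8 satellite glia markers 5 rose, at 1653 to 2000 and 2129 to 2683 FPKM. Of the 8 pan-neuronal markers 4 rose. Of 11 nociceptor markers 3 rose and 1 fell (2529 to 3551 against 2710 to 2832 FPKM), and of 6 pericyte and smooth muscle markers 2 rose and 1 fell (83.8 to 93.2 against 66.7 to 88.3 FPKM). The part of these cell types in the rise of Robo4 and of the other guidance genes was not tested. Epha6 and Ephb1 rose by 0.95 and 0.89, from means of 2.38 and 0.748 FPKM to 4.61 and 1.48 FPKM, with unsorted replicate 3 of Epha6 at 6.18 FPKM above the others. Sema6a, Robo1, Epha4, Sema6b and Unc5a rose by 0.55 to 0.71, and Ephb3, Sema4d, Nrp2 and Efnb2 by 0.37 to 0.49. Several of these calls hung on single samples. Robo1, Epha4 and Unc5a lost theirs in 6, 7 and 5 of the 8 fits that left out 1 sample, Nrp2 without unsorted replicate 1 or 2, Sema6b without unsorted replicate 3 or 4, Epha6 without unsorted replicate 3 and Ephb3 without unsorted replicate 1, at adjusted p-values of 0.052 to 0.11 from limma. Epha6 was at 1.46, 3.02, 2.54 and 2.49 FPKM in intact and 4.04, 3.98, 6.18 and 4.23 in unsorted replicates, and Ephb3 was at 1.51, 1.69, 1.63 and 1.77 in intact and 2.58, 2.44, 2.32 and 2.1 in unsorted replicates. Sema6b was at 1.22, 1.29, 1.56 and 1.45 FPKM in intact and 1.99, 1.79, 2.31 and 2.22 in unsorted replicates, and Nrp2 at 8.51, 10.6, 9.32 and 10.1 FPKM in intact replicates. In the fit of all 12 samples Robo1, Epha4, Unc5a, Nrp2, Sema6b, Ephb3 and Efnb2 did not pass, at adjusted p-values of 0.084 to 0.24 from limma. Sema4d, at 13.2 to 14.3 FPKM in intact DRG, 17.0 to 19.2 before and 25.8 to 29.1 after sorting, passed as higher in both comparisons. Plxnc1, the gene most enriched by sorting, did not pass here, with intact replicates at 39.5, 61.0, 54.3 and 54.0 FPKM on both sides of the unsorted ones. Without intact replicate 1 its log2-fold change was −0.22 (adjusted p = 0.017 from limma). Slit1 did not pass either, at 9.65, 17.6, 18.5 and 18.6 FPKM in intact replicates, where replicate 1 was low. Without that sample Slit1, Plxna4 and Robo2 passed as higher in unsorted DRG. Their log2-fold changes were then 0.28, 0.31 and 0.16 (adjusted p = 0.027, 0.0053 and 0.026 from limma).

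With all 4 intact samples, netrins were the only class in which genes fell, and without intact replicate 1 Plxnc1 and Sema4c fell as well. Ntn4 went from 3.56, 2.39, 2.59 and 3.51 to 1.65, 1.57, 1.34 and 1.90 FPKM, a log2-fold change of −0.85 (SE 0.17, adjusted p = 0.01 from limma), with no overlap and an adjusted p from limma of 0.12 when all 12 samples were fitted together. Ntn1 went from 6.28, 3.29, 3.35 and 4.04 to 3.03, 2.61, 1.47 and 1.57 FPKM, a log2-fold change of −0.95 (SE 0.28, adjusted p = 0.038 from limma), or −0.75 without intact replicate 1, which was the highest sample. It did not pass without intact replicate 3 or 4 or unsorted replicate 2, 3 or 4, with adjusted p-values of 0.051 to 0.1 from limma. Of the 7 fibroblast markers 6 fell in the same comparison, and their summed level was 499 to 948 FPKM in intact and 169 to 339.9 in unsorted DRG. Of 6 macrophage markers 4 fell, at 13.1 to 25.8 FPKM in intact and 5.39 to 9.88 in unsorted DRG. The part of these cell types in the fall of the netrins was not tested.

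**Figure D5:**
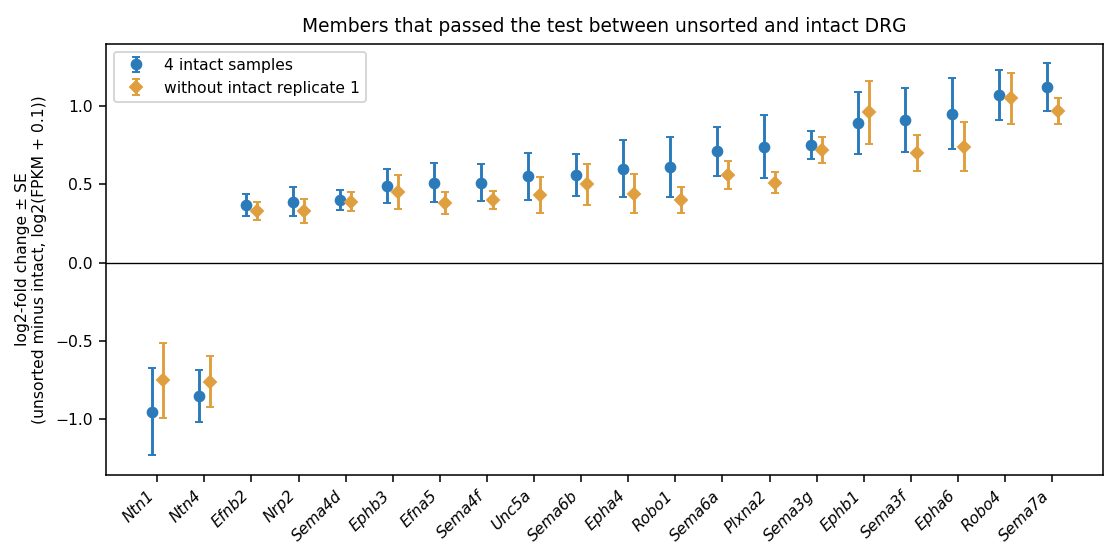
Log2-fold change with its SE (limma on log2(FPKM + 0.1)) of the 20 guidance genes that passed between unsorted and intact DRG, with all 4 intact samples and without intact replicate 1. The 18 genes above zero and the 2 netrins below it kept their side without that sample, and most estimates moved toward zero.

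Other genes of the pathway were described from a list of 69, among them collapsin response mediators, kinases, actin proteins, adhesion molecules and further cues. Of 65 tested, 12 rose and 27 fell with sorting, beside 18.8% and 27.7% of all genes, and 3 and 14 met the criteria, beside 8.15% and 12.5%. The median log2-fold change of −0.14 was closer to that of all genes than for the ligands and receptors. Adhesion molecules and other cues held the largest falls. Ntng1 and Ntng2, which encode membrane-anchored relatives of the netrins, fell with log2-fold changes of −3.61 and −2.89, from 12.03 and 20.8 FPKM to 0.922 and 2.73 FPKM (adjusted p = 8e-07 and 1.2e-06 from limma). Lrrc4c, which encodes a partner of the Ntng1 product, fell by 2.22, from 9.38 to 1.99 FPKM. The enriched genes were Mical1, an enzyme downstream of plexins, at 36.7 against 19.4 FPKM, Arhgap39, which acts downstream of Robo receptors, at 29.3 against 17.9 FPKM, and Rgmb, a ligand of neogenin, at 103 against 66.5 FPKM. Their log2-fold changes were 0.89, 0.71 and 0.63. Between unsorted and intact DRG 23 of the 65 rose and 2 fell, beside 14.8% and 7.79% of all genes, and 6 and 0 met the criteria, beside 4.29% and 2.76%. The 3 largest rises that met them were those of Ntng1, Ntng2 and Enah, an actin regulator, by 0.98, 0.77 and 0.61.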

How the data were processed

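RNA-seq was made from 12 DRG samples in 3 groups of 4, grouped by the labels. Per the study's methods, polyA libraries (NEBNext Ultra directional) gave 100-base reads that were aligned with TopHat2 to mm10 (at most 2 alignments kept per read) and merged with SAMtools, and the authors used Cufflinks 2.1.1 to make the deposited values, which are FPKM per gene and sample. The submitters' processing notes name the same tools. FPKM is normalized to length and total, so that a few very high genes, such as those of haemoglobin, lower the rest of their sample, and reads shared between overlapping or similar genes are split by the estimate. All value columns were matched to samples.

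Counts were not used here and a count test was not run. log2(FPKM + 0.1) was tested with limma 3.58.1 in R 4.3.3 (trended variance, two-sided, Benjamini-Hochberg adjustment over all genes tested) for genes that averaged 1 FPKM or more in the 8 samples compared, in place of the study's CuffDiff. Fold changes are on this scale and understate those of low genes. The study's limits on ratio and level were then applied to group means. An exact permutation test of 4 against 4 samples cannot go below p = 0.029. On simulated data for the sorting comparison, 85% of 200 genes changed by 1 on the log2 scale were recovered among 12200 tested, with 7 calls among 12000 unchanged genes. Noise was independent between genes with the same SD in both groups, and the changed genes were picked above a minimum level. In the data far more genes passed, 2261 higher and 3331 lower, so these rates do not carry over to it. Same-numbered samples did not deviate together, and no label ties them.

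The 69 genes, the pathway and marker lists and the tests were chosen with earlier results of these data known. Values in every sample compared are given for genes that met the 3 criteria, for the leading gene of a family and for genes whose test hinges on 1 sample, and for pathway genes the 3 largest changes in each direction that met the criteria are named. Start positions in the files count from 0 and were moved to count from 1. Alternatives were other pseudocounts, filters, scalings, call limits and sample sets.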

Additional observations from a re-analysis of the deposited data

Results flagged for a closer look

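In 12 of 149 sets of 4 values, 1 sample lay far from the other 3 by Dixon's criterion, which chance meets in about 1 of 20. Intact replicate 1 accounted for 6 of them and unsorted replicate 3 for 4. In intact replicate 1, Plxna2 was at 6.41 FPKM against 11.8 to 12.8 in the others, Slit1 at 9.65 against 17.6 to 18.6, Robo2 at 12.9 against 19.97 to 20.9, Sema7a at 11.6 against 17.4 to 18.1, Sema4b at 7.43 against 10.1 to 10.5 and Epha4 at 0.693 against 1.11 to 1.18. All 6 were low in that sample, which also stood apart in the comparison of replicates over genes of higher level. In unsorted replicate 3, Slit1 was at 25.8 FPKM against 20.9 to 21.2, Sema3f at 12.5 against 8.90 to 9.36, Epha6 at 6.18 against 3.98 to 4.23 and Plxna3 at 3.45 against 3.22 to 3.26, so that all 4 were high. Plxnc1 was low in MACS-sorted replicate 4, at 77.6 FPKM against 114 to 121, and in unsorted replicate 4, at 45.8 against 48.9 to 49.5.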

How the results depend on the processing

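Of the 38 guidance genes that passed between MACS-sorted and unsorted DRG, 33 passed under every alternative in which they were tested, the exceptions being Efna2, Robo2, Sema4c, Sema6c and Sema6d. Of the 20 between unsorted and intact DRG 6 did. None of these 58 reversed under an alternative. For the sort, requiring a log2 ratio beyond 1 left 1 enriched gene in place of 4, and a mean above 1 FPKM in place of 5 gave 27 depleted in place of 12. Quantile normalization gave 11 higher in place of 7, moving the median log2-fold change of all genes from −0.04 to 0.10 and that of the guidance genes from −0.69 to −0.49, and testing only genes that averaged 5 FPKM or more left 14 lower in place of 31, as fewer genes were tested. With haemoglobin genes removed and values rescaled, 8 were higher and 29 lower, of which 5 and 12 met the criteria. The median log2-fold change was then −0.65 over the guidance genes and 0.01 over all genes. Leaving out 1 sample gave 5 to 8 higher and 26 to 32 lower, of which 4 to 5 and 12 to 13 met the criteria. For dissociation, a ratio beyond 1 left 1 gene in place of 6, and a mean above 1 FPKM gave 15 higher and 2 lower in place of 6 and 0. All 12 samples in 1 fit, and the filter at 5 FPKM, each left 9 higher and 0 lower in place of 18 and 2. The cause was not tested for the joint fit. Leaving out 1 sample gave 11 to 21 higher (11 without unsorted replicate 1) and 1 to 4 lower, 4 without intact replicate 1 and 1 without intact replicate 3 or 4 or unsorted replicate 2, 3 or 4, of which 4 to 6 and 0 met the criteria. Averaging unsorted replicates 1 and 2 gave 6 higher and 27 lower for the sort and 12 and 2 for dissociation.

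The replicate number as a block gave 7 higher and 30 lower for the sort and 15 and 3 for dissociation, with 4 and 12, and 6 and 0, by the criteria. Same-numbered samples correlated at −0.0291 to 0.0437 in the first and −0.157 to 0.0654 in the second comparison, and only for replicate 3 of the first did a sample correlate best with its own number, so the numbers were not taken as pairs. Depth limits the genes under 1 FPKM.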
